A study of Mus musculus with 9 samples.

Results

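The genes of DNA replication and S phase described here are 37 symbols that encode factors of origin licensing and firing, the replication fork, nucleotide supply, G1/S control and chromatin replication. They were chosen by name, with earlier results of these data known. All 37 are among the 22161 gene rows of the table and among the 15740 genes that were tested. Poly(A) RNA was sequenced from whole kidneys of C57BL/6 mice aged 10 weeks (postnatal day 70), in 3 groups of 3 mice. The wild type group (WT) carries no listed mutant allele. The Pkd2 knockout (KO) is Pkd2fl/fl;Pax8rtTA;TetO-cre, and the double knockout (DKO) is Ift88fl/fl;Pkd2fl/fl;Pax8rtTA;TetO-cre. All 3 groups, wild type included, had 2 mg/ml doxycycline by mouth over 2 weeks that began on postnatal day 28. Doxycycline switches on the cre through the Pax8 promoter, which is active along the kidney tubule, so cells outside the tubule were not targeted. Pkd2 encodes polycystin-2, a channel lost in a form of polycystic kidney disease, and Ift88 encodes a transport protein without which cilia are not built. A number after WT, KO or DKO denotes 1 mouse.

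Replication begins with licensing, in which the origin recognition complex, Cdc6 and Cdt1 load the Mcm2-7 helicase onto DNA in G1. At the start of S phase, kinases and firing factors turn the loaded helicase into a moving fork, where primase, polymerases, the sliding clamp Pcna and ligase copy both strands. E2F transcription factors drive many of these genes as cells leave G1, and in adult kidney tubules, where few cells divide, most of the machinery is kept at low levels.

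Normalized totals were 40454151 to 42874467 per library. Mean Pkd2 was 36.3% of wild type in KO and 33.3% in DKO kidneys, and mean Ift88 in DKO was 66.0% of KO, so the targeted genes followed the labels. Tissue markers were those of kidney: 8 proximal tubule markers summed to 679113 to 768756 normalized counts in each library. WT 3 and KO 3 carry mouse names with another prefix than the other mice of their groups, and prefixes are not shared between groups, so prefix and genotype cannot be told apart. In whole tissue, fewer cells of a type and less RNA per cell cannot be told apart either.

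Promoter sequence is shown for members whose level or pattern the results turn on, because the search below was for the letters that E2F factors bind. RefSeq windows from 250 bases before to 50 after the start (GRCm38.p6) matched 32 of the 37 members by symbol, and Mcm4, Ccne2, Pole, Gins1 and Gins2 had none. The build behind the deposited counts is not given in the sources used here. Bases that GENCODE M21 places in a UTR or coding exon, and bases after the start, are not printed. Capitals mark the 8-base matches to TTTCCCGC, TTTGGCGC, TTTCGCGC or TTTGCCGC on either strand. Dtl and Uhrf1 are members that changed, Mcm6 is an abundant member with 3 matches, and Rrm2 and Pcna had no match. The Pcna stretch ends 135 bases before the RefSeq start, where GENCODE places the first exon. Mcm6 and Rrm2 were chosen after their values were seen.
Dtl (chr1:191575545-191575635, minus strand): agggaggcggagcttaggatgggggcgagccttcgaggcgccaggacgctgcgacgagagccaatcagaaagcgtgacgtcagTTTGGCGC
Uhrf1 (chr17:56304113-56304312, plus strand): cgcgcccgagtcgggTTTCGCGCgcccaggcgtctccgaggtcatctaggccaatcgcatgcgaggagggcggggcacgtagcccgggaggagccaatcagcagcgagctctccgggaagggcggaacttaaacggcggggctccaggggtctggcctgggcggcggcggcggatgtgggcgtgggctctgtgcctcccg
Mcm6 (chr1:128359706-128359905, minus strand): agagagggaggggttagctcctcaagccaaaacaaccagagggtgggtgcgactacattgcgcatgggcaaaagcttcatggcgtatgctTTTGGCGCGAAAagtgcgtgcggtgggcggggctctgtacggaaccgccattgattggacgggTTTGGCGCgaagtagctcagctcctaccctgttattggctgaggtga
Rrm2 (chr12:24708041-24708240, plus strand): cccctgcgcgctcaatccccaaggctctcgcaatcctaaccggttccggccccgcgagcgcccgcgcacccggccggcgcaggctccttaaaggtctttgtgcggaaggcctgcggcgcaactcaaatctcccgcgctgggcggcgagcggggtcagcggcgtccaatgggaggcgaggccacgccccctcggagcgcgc
Pcna (chr2:132253315-132253430, minus strand): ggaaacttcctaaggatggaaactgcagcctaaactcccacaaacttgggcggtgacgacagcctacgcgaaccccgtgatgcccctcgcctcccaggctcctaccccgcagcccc

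The match in Dtl begins 8 bases before the start, and that in Uhrf1 begins 185 bases before it. In Mcm6 a pair of overlapping matches, which share letters on opposite strands, begins 110 and 106 bases before the start, and the third begins 47 bases before it. Across the members, 14 of 32 (43.8%) held at least 1 match in a window, as did 481 of the 11221 tested genes with a window (4.29%) and 2.26% of all 32851 windows of this length. The share was near that of the members in the other DNA replication genes described below, 19 of 54 with a window (35.2%). In mitosis genes it was 1 of 21 (4.76%). Matches were unevenly spread over the roles: 7 of 8 licensing genes had one (Cdc6, Cdt1, Orc1, Mcm3, Mcm5, Mcm6 and Mcm7), and none of 4 nucleotide supply genes did. At the fork the matched genes were Rfc3, Lig1 and Pola1, and E2f2 and Dnmt1 had matches too. The letters TTTGAA, the core of the CHR element known from late cell cycle genes, were in 5 of 32 members (15.6%) and in 14.5% of tested genes, against 16 of 21 mitosis genes (76.2%). CCAAT was in 65.6% of members and 42.2% of tested genes. A match is only a run of letters, and its absence says that those letters are not in the window.

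The first comparison, KO against WT, asked what Pkd2 loss did to these genes. Limma, at a Benjamini-Hochberg adjusted p below 0.05, called 5 of the 37 members higher, none lower and 32 not at all. The same call, higher in KO, was made for 1.14% of all 15740 genes tested. The 5 were Rrm1 and Rrm2, the large and small subunits of ribonucleotide reductase, which makes the deoxynucleotides; Uhrf1, which brings the maintenance methyltransferase to newly copied DNA; Dtl, which directs the licensing factor Cdt1 to destruction in S phase; and Pole, the catalytic subunit of the leading strand polymerase. Across all members the median log2 fold change was 0.41, a fold of 1.33, with a range of -0.29 to 1.55, and the median of all tested genes was 0.0043. Means were higher in KO for 35 members, and for 8003 of all 15740 genes. The KO mice lay above the WT mice without overlap for 22 members (59.5%), against 12.4% of all genes. At an unadjusted p below 0.05, 21 members were higher and none lower, where 9.36% of all genes were higher.

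The 5 calls did not rest equally on all mice. Without WT 1 the count of rises was 2, without WT 2 it was 1, and without KO 1 or KO 2 it was 2. Leaving out any other mouse gave 4 to 6. Reads recovered from the 9 libraries gave 5 calls with edgeR and 10 with DESeq2, which called 3.8% of all genes higher. Array quality weights, which let limma weigh libraries unequally, gave 17, with 10.8% of all genes higher. On the 7 libraries without WT 1 and KO 1, edgeR and limma called none and DESeq2 called 3. Over all genes these fits called 11, 13 and 296 in either direction.

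**Figure D1:**
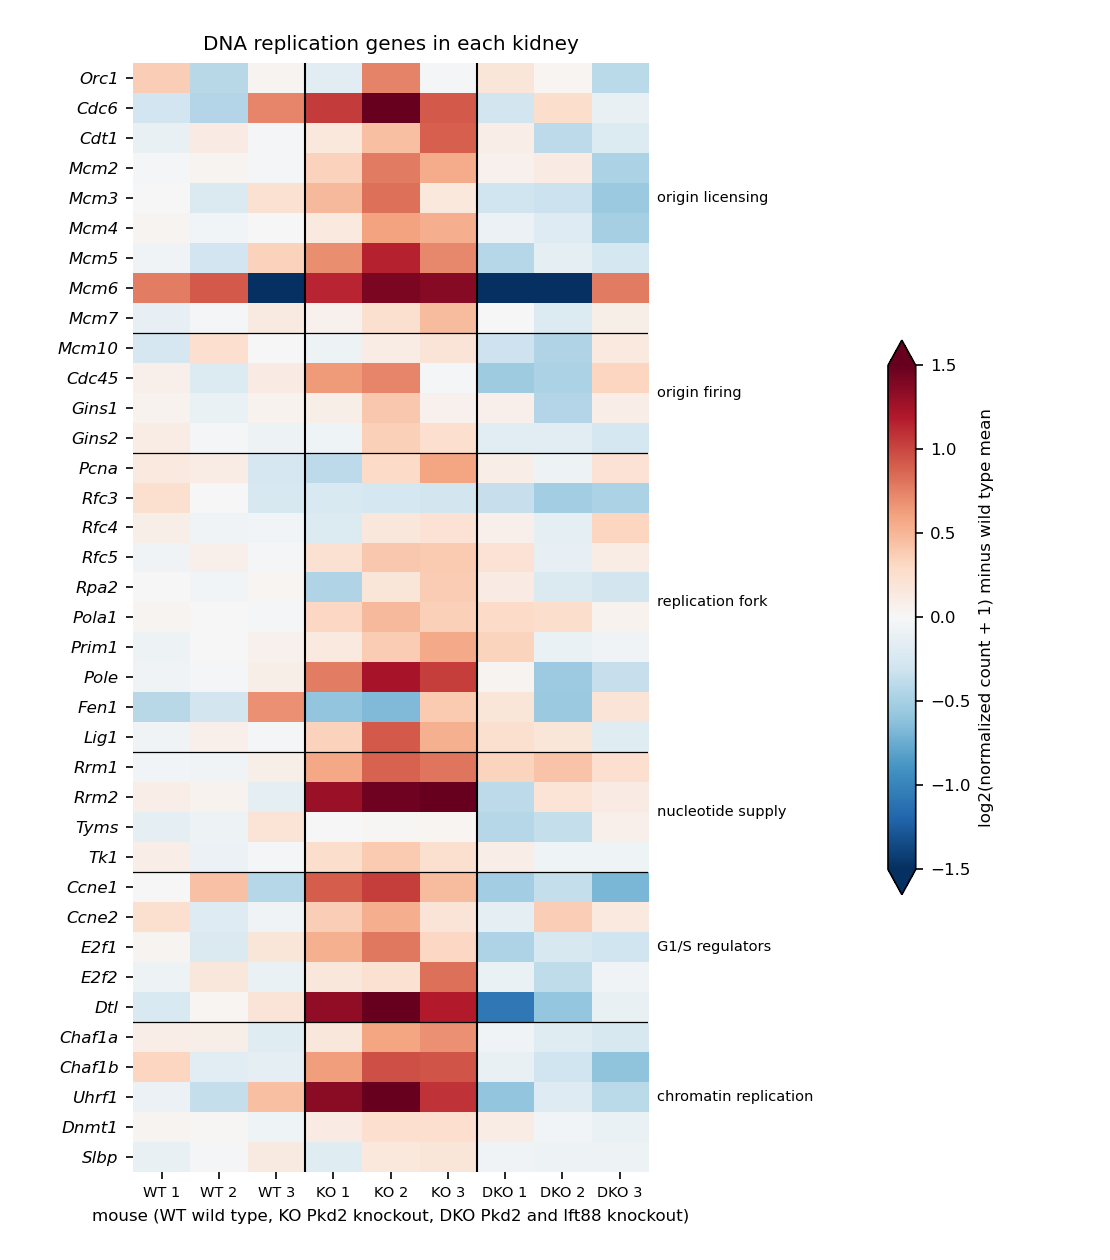
Each cell is the log2(normalized count + 1) of a member in 1 mouse minus the mean of the 3 wild type mice, with members grouped by role and mice in columns. Colours end at 1.5 in either direction. KO columns are mostly red and DKO columns pale or blue, while Mcm6 is dark blue in WT 3, DKO 1 and DKO 2.

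The second comparison, DKO against KO, asked what loss of Ift88 in addition to Pkd2 did. It shares the KO mice with the first comparison, so the values of both are given side by side and their likeness is not a result. Of the 37 members, 4 fell and none rose: Rrm2, Uhrf1, Dtl and Pole. Falls were called for 0.267% of all genes tested. The median log2 fold change was -0.42, with a range of -2.77 to 0.23, and the DKO mice lay below the KO mice without overlap for 24 members (64.9%), against 7.78% of all genes. The count of falls was 2 without WT 1, WT 2 or DKO 3, 0 without KO 1 or KO 2, 1 without DKO 1 or DKO 2, 5 without WT 3 and 6 without KO 3. With WT 3 and KO 3 both left out, 8 members fell and 308 of all genes were called in either direction. Such calls over all genes were 62 in the main fit, 8 without KO 1, 10 without KO 2, 15 without DKO 1 and 12 without DKO 2. They were 35 without WT 1, 28 without WT 2, 53 without DKO 3, 70 without WT 3 and 154 without KO 3. On 9 libraries edgeR called 5 falls and DESeq2 12, with 2.05% of all genes called lower by DESeq2, and array quality weights gave 10, with 2.64%. On the 7 libraries edgeR and limma called none and DESeq2 7. Over all genes these fits called 10, 11 and 149 in either direction. At an unadjusted p below 0.05, 23 members were lower and none higher, where 6.49% of all genes were lower.

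The third comparison, DKO against WT, shares mice with both others. Limma called none of the 37 members, and 0.229% of all genes were called in either direction. At an unadjusted p below 0.05, only Rrm1 was higher and only Rfc3 lower, where 5.93% of all genes were higher and 5.81% lower. With 1 of 37 members in each direction, the counts are too small to set apart from these shares. edgeR and DESeq2 called no member on 7 or on 9 libraries. The median log2 fold change was -0.12. DKO mice lay below WT without overlap for 5 members (13.5%, against 9.24% of all genes) and above for 2 (5.41%, against 9.1%).

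Counted over mice, KO had the highest mean of the 3 groups for 34 members, and its mice exceeded all 6 others for 20, as they did for 3.72% of all genes. The highest of the 9 mice was KO 2 for 23 members and KO 3 for 9, and KO 1 was never the highest. The lowest of the 9 was a DKO mouse for 26. Means ran KO, WT, DKO from high to low for 26 members and KO, DKO, WT for 8. The median difference of the members from the wild type mean was 0.23 in KO 1, 0.55 in KO 2 and 0.47 in KO 3 on the log2 scale. In DKO 1, 2 and 3 it was -0.06, -0.19 and -0.10, so all 3 KO mice stood above all 3 DKO mice on this measure.

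**Figure D2:**
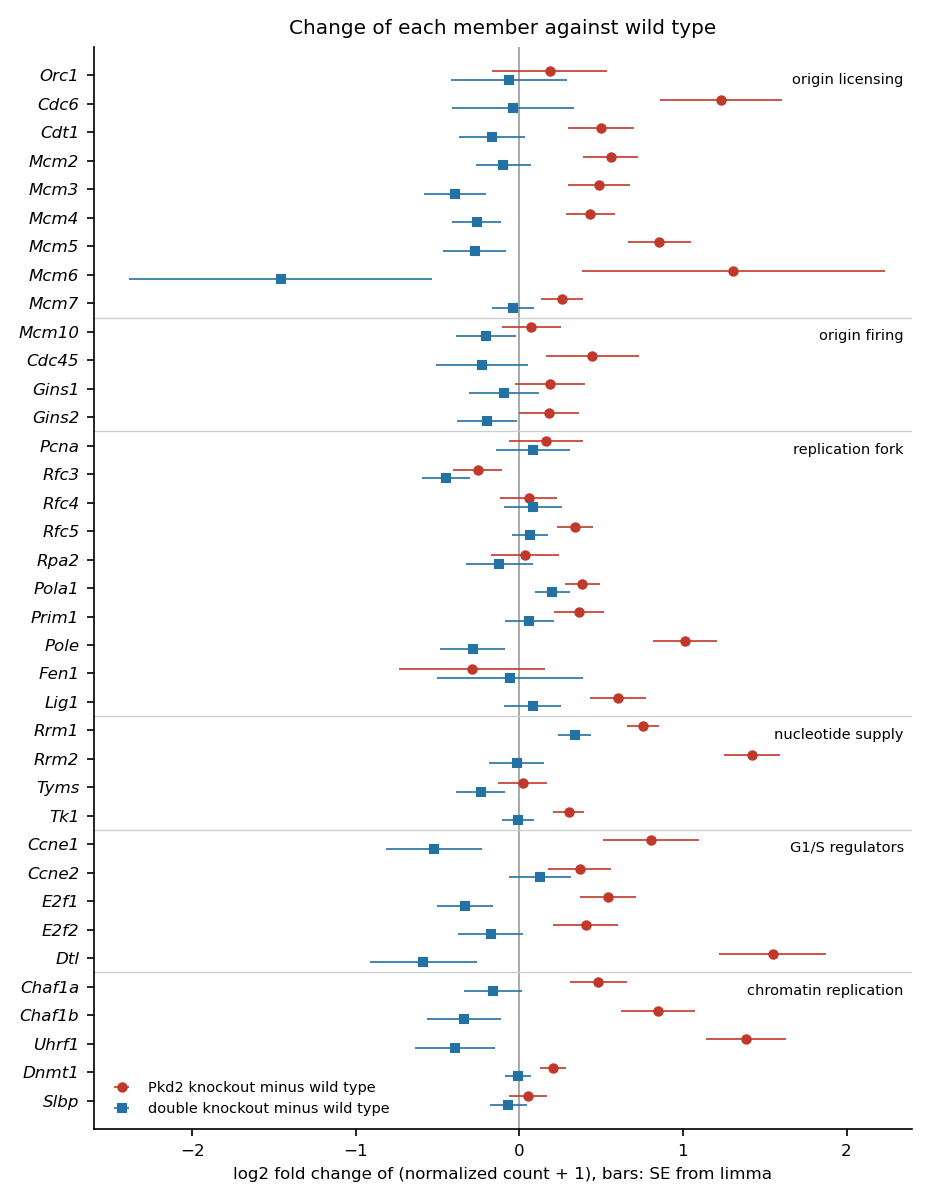
Points give the log2 fold change of each member against wild type in KO (circles) and DKO (squares), with bars of 1 standard error from limma. KO points lie right of 0 for 35 members and DKO points left of 0 for 29, and the widest bars belong to Mcm6.

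All 9 licensing genes had higher means in KO than in WT, and 6 lay above wild type without overlap. Of all 15740 genes, 8003 had higher means and 12.4% lay above without overlap. The median log2 fold change of the licensing genes was 0.50, and limma called none. In DKO against KO all 9 had lower means, as did 7667 of all 15740 genes. The licensing median was -0.69, and limma again called none. On 9 libraries DESeq2 called Mcm2 and Mcm5 higher in KO and Mcm2, Mcm3, Mcm4 and Mcm5 lower in DKO, and edgeR called Mcm5 lower in DKO. On 7 libraries DESeq2 called Mcm4 and Mcm5 lower in DKO and edgeR none. Mcm5, a helicase subunit, came nearest to the threshold: it was 191, 162 and 253 normalized counts in WT, 323, 443 and 327 in KO and 148, 181 and 166 in DKO. Every KO mouse exceeded all 6 others. Its log2 fold change was 0.86 ± 0.19 (SE) in KO against WT (adjusted p = 0.0558) and -1.13 ± 0.19 in DKO against KO (adjusted p = 0.0510), and limma called both without WT 3. Cdc6, the loader of the helicase, is scarce in these kidneys: it was 15.1, 13.5 and 31.6 in WT, 39.7, 64.5 and 36.1 in KO and 15.3, 22.7 and 17.2 in DKO. The KO mice were again above all others, but the spread was wide (1.23 ± 0.37, adjusted p = 0.127). Cdt1, its partner in loading, went from 201 ± 17.0 in WT to 290 ± 76.2 in KO (SD, n = 3; adjusted p = 0.237). Orc1, the largest subunit of the origin recognition complex, averaged 17.9 over all mice and overlapped in all groups.

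Among the 6 helicase subunits, which act as a ring with 1 copy of each, Mcm2, Mcm3, Mcm4, Mcm5 and Mcm7 had KO means at 120 to 180% of WT. Besides Mcm5, their log2 differences between KO and WT were 0.56 for Mcm2 (adjusted p = 0.125), 0.49 for Mcm3 (0.219), 0.43 for Mcm4 (0.171) and 0.26 for Mcm7 (0.326). In DKO against KO they were -0.66, -0.88, -0.69 and -0.30, and Mcm3 and Mcm4 had an adjusted p of 0.0999 each. The DKO mice of Mcm3 and Mcm4 also lay below all WT mice. Mcm6 differed. It was 997, 1101 and 181 normalized counts in WT, 1289, 1557 and 1511 in KO, and 90.6, 104 and 1000 in DKO. WT 3, DKO 1 and DKO 2 were far below the other 6 mice, so the low values crossed genotypes, and none was in KO. With that spread the difference between KO and WT was 1.31 ± 0.93 and that between DKO and KO was -2.77 ± 0.93, and neither passed (adjusted p of 0.491 and 0.294). Of the genes next to Mcm6, Dars, which encodes a tRNA synthetase, was 3892, 3874 and 3235 in WT, 3664, 3625 and 3878 in KO and 3021, 3042 and 4223 in DKO. Ubxn4, on the other side beyond Lct, was 4195, 4283 and 4766 in WT, 4951, 4859 and 3805 in KO and 3752, 4303 and 5369 in DKO. Dars was thus lowest in the same 3 mice as Mcm6, over a much narrower range, and Ubxn4 was not. Whether the genes share a source of this variation was not tested. Mcm7 shares exon sequence with Ap4m1 and Cops6 on the opposite strand.

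**Figure D3:**
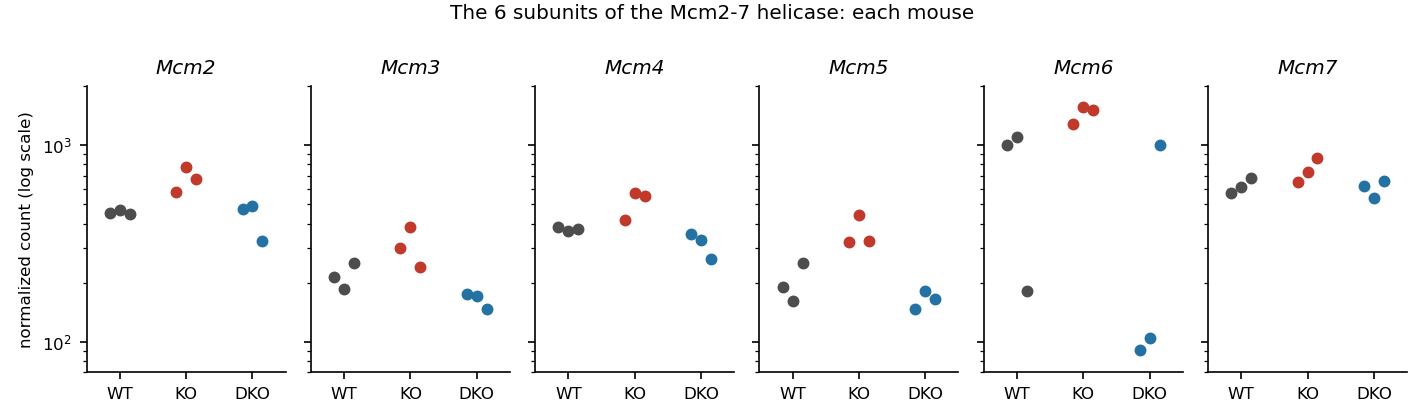
Normalized counts of the 6 helicase subunits are plotted on a log scale, with a dot for each mouse in WT, KO and DKO. The dots of Mcm2, Mcm3, Mcm4, Mcm5 and Mcm7 stay close within a group, while Mcm6 has 1 WT mouse at 181 and DKO mice at 90.6 and 104.

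Over the 4 firing factors the median log2 fold change was 0.19 in KO against WT and -0.33 in DKO against KO, and limma called none. Mcm10, which helps activate the loaded helicase, was 338, 480 and 407 in WT, 382, 435 and 463 in KO and 327, 294 and 449 in DKO. The groups overlapped, and WT 2 was the highest mouse. Cdc45 and the GINS subunits Gins1 and Gins2 join Mcm2-7 in the active helicase. Cdc45 averaged 86.1 ± 10.3 in WT, 120 ± 31.9 in KO and 76.0 ± 27.2 in DKO. Gins1 and Gins2 stayed between 35.3 and 68.2 normalized counts in every mouse. The exons of Cdc45 and Gins2 overlap Ufd1 and Gse1 on the opposite strand.

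At the fork 1 of 10 genes rose in KO and fell in DKO, and the median log2 fold changes were 0.25 and -0.19. Pole was 73.3, 74.4 and 80.6 in WT, 130, 180 and 157 in KO and 78.4, 51.7 and 59.4 in DKO. The KO mice were far above the rest, and WT and DKO overlapped. It rose by 1.01 ± 0.20 on the log2 scale in KO (adjusted p = 0.0355) and changed by -1.30 ± 0.20 in DKO against KO (adjusted p = 0.0362). The rise did not pass without WT 1 (0.118), WT 2 (0.122), WT 3 (0.0659), KO 1 (0.0739), KO 2 (0.138) or KO 3 (0.0624), without WT 3 and KO 3 together (0.0746), or on the 7 libraries (edgeR 0.261, DESeq2 0.0571, limma 0.236). The fall did not pass without WT 1 (0.0687), WT 2 (0.0729), KO 1 (0.113), KO 2 (0.154), DKO 1 (0.0565), DKO 2 (0.122) or DKO 3 (0.0664), with quantile normalization (0.0673), with only these 2 groups in the fit (0.110), or on the 7 libraries with edgeR (0.189) or limma (0.197). The antisense gene Gm15792 overlaps exons of Pole, and reads there cannot be told apart without strand.

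Other fork genes showed how unevenly the fork was represented. Pcna, the sliding clamp and a common marker of proliferating cells, was 901, 881 and 686 in WT, 623, 999 and 1229 in KO and 877, 772 and 953 in DKO. KO held both the lowest and the highest of the 9 mice, and the difference between KO and WT was 0.16 ± 0.23. Lig1, the ligase that seals Okazaki fragments, averaged 209 ± 10.6 in WT, 322 ± 67.7 in KO and 223 ± 33.7 in DKO, with KO above both others without overlap (0.60 ± 0.17, adjusted p = 0.109 against WT). Pola1, the catalytic subunit of polymerase alpha, and its primase partner Prim1 were 0.39 and 0.36 higher in KO on the log2 scale (adjusted p of 0.103 and 0.252). DESeq2 on 9 libraries called Lig1 and Pola1 higher in KO against WT, but not Prim1. Of the clamp loader subunits, Rfc5 was 0.34 higher, Rfc4 0.06 higher and Rfc3 -0.26 on the same scale, and none passed. Exons of Rfc4, Rfc5 and Lig1 overlap Eif4a2, Wsb2 and Zswim9 on the opposite strand. Rfc3 was 203, 170 and 145 in WT, 146, 142 and 141 in KO and 134, 119 and 123 in DKO, so its DKO mice were below all others. Rpa2, which coats single-stranded DNA, differed by 0.04. Fen1, the flap nuclease of Okazaki fragments, averaged only 12.1, and its exons overlap Tmem258 and Gm10143 on the opposite strand, so its level is uncertain.

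Nucleotide supply held the call that withstood the most alternatives. Rrm2, the small subunit of ribonucleotide reductase, made chiefly in S phase, was 179, 172 and 150 in WT, 410, 462 and 477 in KO and 127, 193 and 182 in DKO. Every KO mouse had more than double the value of every WT and DKO mouse, and WT and DKO overlapped. It rose by 1.42 ± 0.17 in KO (adjusted p = 0.00525), a fold of 2.68, and passed without any 1 of the 9 mice (highest adjusted p = 0.0343). It did not pass on the 7 libraries with edgeR (0.0844) or limma (0.0799). In DKO against KO it changed by -1.44 ± 0.17 (adjusted p = 0.0168), which did not pass without KO 1 (0.0731) or KO 2 (0.0946), with only these 2 groups in the fit (0.0549), or on the 7 libraries with edgeR (0.115) or limma (0.128).

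Rrm1, which pairs with Rrm2, was 560, 557 and 612 in WT, 862, 1065 and 1004 in KO and 724, 777 and 685 in DKO. The 3 groups did not overlap, with DKO between the others. It rose by 0.76 ± 0.10 in KO (adjusted p = 0.00846), which did not pass without WT 2 (0.0504) or on the 7 libraries (edgeR 0.0826, limma 0.0737). DKO differed from KO by -0.42 (adjusted p = 0.133) and from WT by 0.34 (adjusted p = 0.252). DESeq2 called Rrm1 lower in DKO against KO on 9 and on 7 libraries. Tk1, the salvage kinase for thymidine, was 478, 420 and 440 in WT, 534, 587 and 527 in KO and 479, 427 and 426 in DKO. Its KO mice were above all others by a small margin (0.30 ± 0.10, adjusted p = 0.146), and its exons overlap Afmid. Tyms, which makes thymidylate, averaged 430 ± 56.4 in WT and 433 ± 3.89 in KO, a difference of 0.02.

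**Figure D4:**
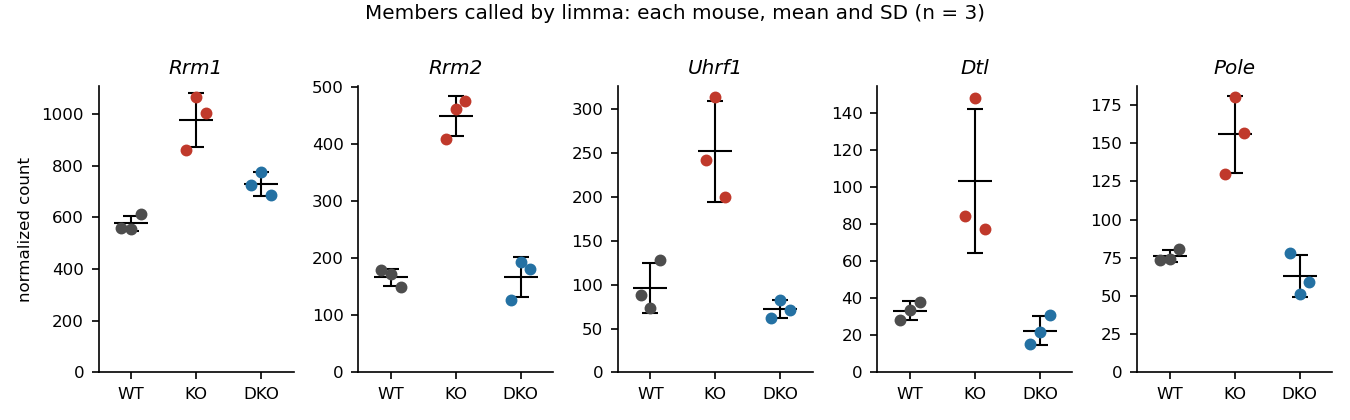
Normalized counts of the 5 members that passed in KO against WT, with a dot for each mouse, a line at the mean and bars of 1 SD (n = 3), on axes from 0. All KO dots lie above all WT and DKO dots in each panel, and for Rrm1 the DKO mice, at 685 to 777, lie between WT and KO.

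G1/S regulators had the largest median shifts of the 6 roles, 0.54 in KO against WT and -0.88 in DKO against KO. Dtl was 28.1, 33.8 and 38.1 in WT, 84.4, 148 and 77.0 in KO and 15.3, 21.7 and 30.7 in DKO. The KO mice were all above the others, and KO 2 stood apart within its group. Dtl rose by 1.55 ± 0.33 in KO (adjusted p = 0.0448) and changed by -2.13 ± 0.33 in DKO against KO (adjusted p = 0.0362). The rise did not pass without WT 1 (0.143), WT 2 (0.133), WT 3 (0.0751), KO 1 (0.118), KO 2 (0.151) or DKO 2 (0.0629). Nor did it pass with no filter (0.0584), a filter at a mean of 50 (0.0539), quantile normalization (0.0685) or no intensity trend (0.0575). It also failed with only KO and WT in the fit (0.0515), without WT 3 and KO 3 together (0.0580), and on the 7 libraries (edgeR 0.300, DESeq2 0.0925, limma 0.309). The fall did not pass without WT 1 (0.0664), WT 2 (0.0729), KO 1 (0.113), KO 2 (0.151), DKO 1 (0.109) or DKO 2 (0.122). Nor did the fall pass with quantile normalization (0.0673), with only DKO and KO in the fit (0.106), or on the 7 libraries with edgeR (0.189) or limma (0.203).

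Of the cyclins that start S phase with Cdk2, Ccne1 averaged 22.9 ± 7.09 in WT, 40.2 ± 8.06 in KO and 15.3 ± 1.90 in DKO (0.81 ± 0.29, adjusted p = 0.193 for KO against WT, and -1.32, adjusted p = 0.106 for DKO against KO). Ccne2 differed by 0.37 and -0.24 in the same comparisons, with overlap, and shares exon sequence with Ints8. DESeq2 on 9 libraries called Ccne1, and not Ccne2, lower in DKO against KO, and neither in KO against WT. E2f1, an activating E2F factor, was 132, 109 and 145 in WT, 185, 221 and 159 in KO and 92.6, 108 and 103 in DKO. The 3 groups did not overlap and DKO was the lowest, but limma called no difference (adjusted p of 0.140 for KO against WT, 0.0754 for DKO against KO and 0.492 for DKO against WT). DKO against KO was called lower with DESeq2 on 9 libraries, with array quality weights, without KO 3, and without WT 3 and KO 3 together, and KO against WT was called higher with array quality weights. E2f2, also an activator, was 124, 146 and 121 in WT, 146, 152 and 230 in KO and 121, 99.7 and 126 in DKO. Its KO and WT mice overlapped and KO 3 was far above the other 8 (0.41 ± 0.20, adjusted p = 0.325).

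Chromatin replication genes had median log2 fold changes of 0.48 and -0.64, with 1 of 5 passing in each comparison. Uhrf1 was 88.4, 73.2 and 128 in WT, 242, 314 and 200 in KO and 62.1, 82.5 and 70.9 in DKO. The KO mice were above all others, and the DKO mice reached into the lower part of the WT range. Uhrf1 rose by 1.39 ± 0.24 in KO (adjusted p = 0.0267) and changed by -1.78 ± 0.24 in DKO against KO (adjusted p = 0.0306). The rise did not pass without WT 1 (0.101), WT 2 (0.0982), KO 1 (0.0967) or KO 2 (0.0978), or on the 7 libraries with edgeR (0.278) or limma (0.273). The fall did not pass without KO 1 (0.113), KO 2 (0.126), DKO 1 (0.0984), DKO 2 (0.0825) or DKO 3 (0.0543), with quantile normalization (0.0554), or on the 7 libraries with edgeR (0.189) or limma (0.201).

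Dnmt1, the methyltransferase that Uhrf1 recruits, is the most abundant member. It was 1216, 1202 and 1134 in WT, 1285, 1410 and 1405 in KO and 1279, 1150 and 1106 in DKO. KO was above both other groups, by a small amount (0.21 ± 0.08, adjusted p = 0.219 against WT). Chaf1a and Chaf1b, subunits of the CAF-1 complex that deposits histones behind the fork, were 0.48 and 0.85 higher in KO (adjusted p of 0.192 and 0.0910) and differed by -0.64 and -1.19 in DKO against KO (0.194 and 0.0721). DESeq2 on 9 libraries called Chaf1b higher in KO against WT and lower in DKO against KO, and Chaf1a in neither. Slbp, which binds the stem-loop of replication-dependent histone mRNAs, differed by 0.05 and -0.12 in these comparisons.

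Members with an E2F letter match had a median log2 fold change of 0.49 in KO against WT (n = 14), those with a window and no match 0.35 (n = 18), and those without a window 0.37 (n = 5). In DKO against KO the medians were -0.62, -0.30 and -0.38. The ranges overlapped, with -0.26 to 1.55 for matched and -0.29 to 1.42 for unmatched members. Of the members that rose, Dtl and Uhrf1 had a match, while Rrm1 and Rrm2 did not.

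The other DNA replication genes were read from a list of 69, all of them measured. In KO against WT limma called 5 of them higher and none of the other 64 in either direction, where 1.14% of all genes were called higher. On 9 libraries edgeR called 5 and DESeq2 9 higher, where DESeq2 called 3.8% of all genes higher. On 7 libraries edgeR called 0 and DESeq2 3. The median log2 fold change of the 69 was 0.16, where that of the members was 0.41. The 5 were Dbf4, the activator of the Cdc7 kinase (0.81, adjusted p = 0.0130), Clspn, a fork checkpoint protein (1.85, 0.0340), E2f8, a repressive E2F factor (2.18, 0.0191), Asf1b, a histone chaperone (1.55, 0.0448), and Esco2, an acetyltransferase that joins sister chromatids in S phase (2.45, 0.0305). Dbf4 did not pass without WT 1 (0.0602), WT 2 (0.0682) or KO 2 (0.0647). E2f8 did not pass without WT 1 (0.0659), WT 2 (0.0810), KO 1 (0.0551) or KO 2 (0.0908). Clspn did not pass without WT 1 (0.0711), WT 2 (0.0925), WT 3 (0.0503), KO 1 (0.126) or KO 2 (0.127). Asf1b did not pass without WT 1 (0.143), WT 2 (0.126), WT 3 (0.0718), KO 1 (0.164), KO 2 (0.167), DKO 1 (0.0538) or DKO 2 (0.0629), nor Esco2 without WT 1 (0.0893), WT 2 (0.112), WT 3 (0.0683), KO 1 (0.0969), KO 2 (0.104) or KO 3 (0.0579). In DKO against KO limma called none of the 69, with a median of -0.12. At an unadjusted p below 0.05, 19 were lower and 1 higher, where 1022 of all 15740 genes were lower and 660 higher. On 9 libraries edgeR called 1 and DESeq2 7 lower, where DESeq2 called 2.05% of all genes lower. In DKO against WT limma, edgeR and DESeq2 called none. There 2 were higher and 3 lower at an unadjusted p below 0.05, where 5.93% of all genes were higher and 5.81% lower.

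Mitosis genes, which act after replication, shifted further than the members did. Of 25, 18 rose in KO against WT (median log2 fold change 2.05) and 7 fell in DKO against KO (median -1.73), by limma. Over all genes, limma called 1.14% higher in the first comparison and 0.267% lower in the second. On 9 libraries edgeR called 17 and 8 mitosis genes in these comparisons and DESeq2 23 and 20. Of all genes DESeq2 called 3.8% and 2.05% in the same directions. On 7 libraries edgeR called 1 and 0 mitosis genes and DESeq2 17 and 15. In DKO against WT limma and edgeR called none and DESeq2 1 on 9 libraries. At an unadjusted p below 0.05, 7 were higher, where 5.93% of all genes were. The median was 0.51, where the members' was -0.12. Mki67, which encodes the proliferation marker Ki-67, was 202, 146 and 150 in WT, 969, 1166 and 1177 in KO and 165, 277 and 431 in DKO. Top2a, a topoisomerase of S and G2 phase, averaged 120 ± 14.1 in WT, 650 ± 95.2 in KO and 181 ± 67.2 in DKO (SD, n = 3). For both, DKO 2 and DKO 3 lay above every WT mouse while DKO 1 lay within the WT range. The median mitosis gene was -0.01, 0.57 and 1.05 from the wild type mean in DKO 1, 2 and 3, where the median member was -0.06, -0.19 and -0.10. The difference between the lists was not tested.

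**Figure D5:**
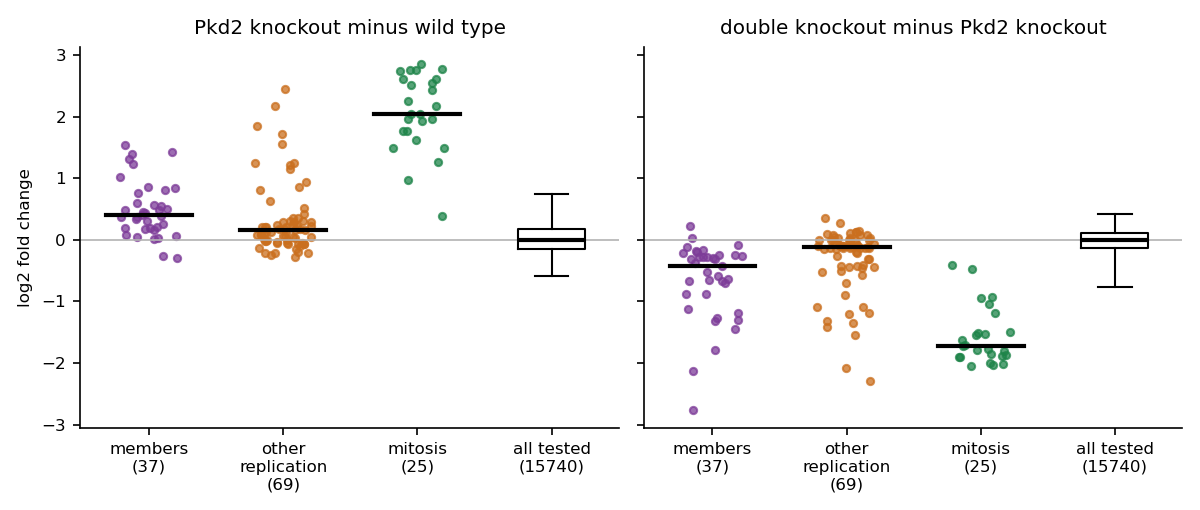
Each dot is the log2 fold change of a gene in KO against WT (left) or DKO against KO (right), with a black line at the list's median; the box gives the quartiles of all 15740 tested genes and its whiskers the 5th and 95th percentiles. Mitosis genes centre at 2.05 and -1.73, the members at 0.41 and -0.42, and the other replication genes at 0.16 and -0.12.

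Markers of other cells moved beside the members. Macrophage markers (6 of 7 in the table, Adgre1 not among them) summed to 4625 to 5437 in WT, 5594 to 7402 in KO and 4418 to 5257 in DKO, and 5 fibroblast markers to 4871 to 7492, 7543 to 11304 and 4251 to 5418. Both sums were thus highest in KO, where 34 members had their highest mean. In KO against WT limma called no single macrophage or fibroblast marker, and 1 of 5 fibroblast markers had a lower mean. Above WT without overlap were 1 of 6 macrophage and 2 of 5 fibroblast markers, against 12.4% of all genes. In DKO against KO limma called 1 of 5 fibroblast markers and 0 of 6 macrophage markers lower, where 0.267% of all genes were called lower. Lymphocyte markers summed to 70.8 to 136, 94.6 to 252 and 59.8 to 232 in the 3 groups. Erythroid markers (6 in all) reached 7392 in KO 3 and stayed between 1306 and 2766 in the other 8 mice. Thick ascending limb markers summed to 348736 to 368718 in WT, 162575 to 201525 in KO and 214091 to 285894 in DKO. Limma called 3 of these 5 lower in KO against WT, where 197 of all 15740 genes were called lower. The part of any of these cells in the members' levels was not tested.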

How the data were processed

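Per the labels' protocols, kidney RNA was extracted with Trizol and sequenced from poly(A) libraries, and groups and replicate numbers come from the sample titles. The deposited values are normalized counts, a signal that the authors made with STAR 2.5.0, HTSeq 0.6.1 and DESeq2, per the submitters' processing notes. Build, annotation and strandedness: not given in the sources used here. Without strand, reads from the exon sequence that 13 members share with another gene in GENCODE M21 cannot be assigned. Of 22161 rows, 25 had date-like names. A read was worth 0.906 to 1.13 normalized counts, and 100% of the values were whole multiples of it (tolerance 0.05), which gives 37056843 to 47314829 reads a library. In 2 libraries, WT 1 and KO 1, that value lies near 1, so the planned count tests used 7 libraries.

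Genes with a mean of 10 or more, 15740 in all, were fitted with limma 3.58.1 in R 4.3.3 as log2(normalized count + 1), with all 3 groups in 1 model, a trend on intensity and no blocking. Calls were two-sided at a Benjamini-Hochberg adjusted p below 0.05 over all genes tested. The pseudocount makes fold changes of low genes too small. The 9 mice are taken as independent, and the series design calls the replicates biological. Errors are SD or SE between mice. The fit was tested on simulated data.

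The members and lists were chosen with earlier results of these data known. Values for each mouse are given for called members and for the most abundant uncalled member of each role; Mcm5, Cdc6, E2f1, Rfc3 and the neighbours of Mcm6 were added after their values were seen. Other replication genes are named if called. Promoters follow the rule of called members with a match plus the most abundant uncalled members with and without one; Dnmt1 matches lie in exon sequence or after the start, so its window is not printed. The alternatives changed the pseudocount (0.1, 10) or the filter (none, mean 50) or used other scalings, other limma settings, leaving out mice, edgeR 4.0.16 and DESeq2 1.42.0. The count tests on all 9 libraries were chosen after seeing the data. A marker of the erythroid list is not reported here.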

Additional observations from a re-analysis of the deposited data

How the results depend on the processing

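Of 26 alternatives, 24 were planned and the edgeR and DESeq2 fits on all 9 libraries were added after seeing the data. The median log2 fold change of the 37 members ranged from 0.32 to 0.52 in KO against WT, -0.52 to -0.35 in DKO against KO and -0.18 to -0.08 in DKO against WT, and no direction reversed. The count of members called in KO against WT, 5, became 17 with array quality weights, where 10.8% of all genes were called higher, 10 with DESeq2 on 9 libraries (3.8%), 3 with DESeq2 on 7, 0 with edgeR or limma on 7, and 1 to 6 when 1 mouse was left out. The count in DKO against KO, 4, became 10 with array quality weights (2.64% of all genes lower), 12 with DESeq2 on 9 libraries (2.05%), 7 with DESeq2 on 7, 0 with edgeR or limma on 7, 1 with quantile normalization, 1 with only the 2 groups compared, 8 without WT 3 and KO 3 together, and 0 to 6 when 1 mouse was left out. Calls over all genes in either direction moved too. In KO against WT they were 377 in the main fit and 70 to 436 when 1 mouse was left out. In DKO against KO they were 62 and 8 to 154. With limma on the 7 libraries without WT 1 and KO 1, they were 13 in KO against WT and 11 in DKO against KO. Without WT 3 and KO 3 together, which also leaves 7 libraries, they were 517 and 308, and 5 members were called in KO against WT. The counts thus differed with the mice left out and not only with their number. The cause was not tested. In DKO against WT the count was 0 in all 26. With a replicate block the counts were 2 (Rrm1 and Rrm2) and 0; same-numbered mice of different groups correlated between -0.142 and 0.215 in their deviations, with 2 of 9 pairs over 0.1, so the numbers were not taken to pair the mice. Depth limits the scarce members, Fen1, Orc1, Ccne1 and Cdc6, most.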

Other observations

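Within the 69 other replication genes, chosen here after their values were seen, the differences between KO and WT were uneven. Ticrr, which fires origins, differed by 1.72 on the log2 scale (limma adjusted p = 0.116), E2f7, a repressive E2F factor, by 1.25 (0.121), Cdca7 and its partner Hells, which remodel chromatin, by 1.25 and 0.86 (0.0791 and 0.0879), and the alternative clamp loader subunits Chtf18 and Dscc1 by 1.21 and 1.15 (0.0813 and 0.141). Limma called none of these 6, and DESeq2 on 9 libraries called Cdca7, Hells and Chtf18 higher. In the same comparison Pold2 and Rpa1, general subunits of the fork, differed by -0.01 and 0.01, the large clamp loader subunit Rfc1 by -0.01, Rrm2b, the ribonucleotide reductase subunit used outside S phase, by 0.03, and the 3 RNase H2 genes Rnaseh2a, Rnaseh2b and Rnaseh2c by -0.21, -0.13 and -0.21.

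Histone genes whose symbols begin with Hist1, Hist2, Hist3 or Hist4, a group also chosen after its values were seen, did not share the members' direction. Poly(A) selection captures little of the replication-dependent histone mRNAs, which end in a stem-loop. Of 49 rows, 15 were tested, and 13 of them had lower log2 means in KO than in WT, as did 7737 of all 15740 genes. WT 3 was the highest of the 9 mice for 9 of the 15, and without it 11 had lower means in KO. Limma called none of the 15. At an unadjusted p below 0.05, 3 were lower and 0 higher, where 1365 of all 15740 genes were lower and 1474 higher. None of the 15 was called by edgeR on 9 or 7 libraries. DESeq2 called 2 lower on 9 libraries and 1 higher and 1 lower on 7. The rows summed to 7729 to 10105 normalized counts in WT, 5500 to 6876 in KO and 6533 to 10093 in DKO, most of it from Hist1h2bc and Hist1h1c. Hist1h1c, which encodes a linker histone, was 3346, 5538 and 3967 in WT, 1816, 2099 and 2933 in KO and 2655, 2361 and 4241 in DKO (adjusted p = 0.115 for KO against WT). Hist1h2al was 195 in KO 3 and between 0 and 1.13 in the other 8 mice.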
